A study of Mus musculus with 2 samples.

Results

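The 8 genes described here encode the subunits of troponin, the calcium switch of striated muscle. They were chosen by name, as the rows for troponin T, I and C, from a table of read counts for 34745 genes: 3 genes for troponin T (Tnnt1, Tnnt2, Tnnt3), 3 for troponin I (Tnni1, Tnni2, Tnni3) and 2 for troponin C (Tnnc1, Tnnc2). RNA sequencing covered whole gastrocnemius, a calf muscle made mainly of fast fibres, from C57BL/6 mice aged 8 weeks. The control library came from Cipc flox/flox mice, in which loxP sites flank both copies of Cipc, the gene of a CLOCK-interacting repressor of the circadian clock. The other library came from Cipc scKO mice, which the series title describes as lacking Cipc in satellite cells, the stem cells of muscle. The labels name neither the Cre driver nor a pooling of animals. They also leave out mdx, the dystrophin-deficient mouse line in the series title, so whether these muscles were dystrophic was not settled.

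Troponin sits on the actin filament together with tropomyosin. Troponin C binds calcium, troponin I holds the filament in the off state when calcium is low, and troponin T ties the complex to tropomyosin. Each subunit comes in forms that go with the kind of muscle: Tnnt3, Tnni2 and Tnnc2 are the fast skeletal genes, Tnnt1 and Tnni1 the slow skeletal genes, and Tnnt2 and Tnni3 the cardiac genes, while Tnnc1 serves slow fibres and heart alike. Tnni1 and Tnnt2 are also known from embryonic muscle.

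The paralogs resemble each other in sequence, so the counts rest on reads that could be told apart. The stretches below show this where each family, taken as a whole, is most alike. Each is the run of 30 coding bases, read 5′ to 3′, that differs least within its subunit family in an alignment of the principal GENCODE M21 transcripts, and capitals mark the positions at which the family members are not all alike.
Tnnt1: TgtGgaTtttgatgacatccaCCGgaagcg
Tnnt2: AgtGgaCtttgatgacatccaCAGgaagcg
Tnnt3: AgtAgaCtttgatgacatccaGAAgaagcg
Tnni1: tggcatggaAggccgCaagaaGaTgttCga
Tnni2: tggcatggaGggccgGaagaaAaTgttCga
Tnni3: tggcatggaAggccgCaagaaAaAgttTga
Tnnc1: AtgagttcaaggctgcctttgaTatCttTg
Tnnc2: CtgagttcaaggctgcctttgaCatGttCg
Even here, 6 of the 30 positions varied among the troponin T genes, 5 among the troponin I genes and 4 between the troponin C genes. Over the aligned coding bases, identity between paralogs lay from 64.6% (Tnni1 and Tnni3) to 69.3% (Tnnt1 and Tnnt3). The longest identical run was 22 bases, between Tnni1 and Tnni2. No stretch of 30 bases of a principal troponin transcript occurred in a transcript of another troponin gene.

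The fast genes dominated both libraries. All 8 genes together took 488795 counts in flox/flox and 415279 in scKO, or 33633 and 29606 CPM (counts scaled to a common library size). Tnnt3, the fast troponin T gene, had 255857 and 203357 counts and ranked 13th and 14th among all genes by count. Tnnc2, the fast troponin C gene, had 114020 and 100021 counts. Tnni2, the fast troponin I gene, had 108768 and 102702. The slow genes were far lower. Tnnt1 had 4679 and 4255 counts, Tnnc1 4032 and 3283, and Tnni1 1390 and 1611. The cardiac genes had few counts. Tnnt2 had 42 and 46 and ranked 10169th and 9872nd by count, where 16375 and 16155 genes had any. Tnni3 had 7 and 4 and ranked 13066th and 13704th. Tnni3 did not reach the summed count of 20 set for testing, so 7 of the 8 genes were tested.

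Per length, the order of the genes was the same in both libraries. In FPKM, the deposited unit that divides a count by gene length and library total, Tnnc2 stood first at 9678 in flox/flox and 9032 in scKO. Tnnt3 followed at 6329 and 5352, and Tnni2 at 2571 and 2583. Next came the slow genes, with Tnnc1 at 183 and 159, Tnnt1 at 89.8 and 86.9, and Tnni1 at 21.9 and 27.0. Tnnt2 (0.326 and 0.380) and Tnni3 (0.152 and 0.0922) came last. The drop from Tnnt1 to Tnni1 was 4.10-fold in flox/flox and 3.22-fold in scKO. In FPKM the largest step was from Tnni1 to Tnnt2, 67.1-fold (49.4 to 91.3, 95% counting interval) in flox/flox and 71.0-fold (53.0 to 95.2) in scKO, followed by that from Tnni2 to Tnnc1, 14.0-fold and 16.3-fold. In FPKM the step from Tnnt2 to Tnni3 was 2.15-fold (0.966 to 4.79) in flox/flox, an interval that includes equality. In scKO it was 4.12-fold (1.48 to 11.4). The counting intervals of all other steps excluded equality in both libraries. The spread between animals was not measured.

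The first and second places depend on the length used. The deposited FPKM imply a length of 800 bases for Tnnc2 but 2745 for Tnnt3 and 8747 for Tnnt2, lengths that are not those of a single mRNA. For 5 of the 8 genes the implied length equals the sum of all distinct exons over the annotated transcripts of the gene. The principal transcripts are 700, 1007 and 1200 bases long, and the annotation lists 2 transcripts for Tnnc2 against 27 for Tnnt3. With CPM per kilobase of coding sequence, Tnnt3 led at 23663 in flox/flox and 19486 in scKO, ahead of Tnnc2 at 16345 and 14856 and Tnni2 at 13707 and 13410. On this scale the slow genes stood at 574 and 485 (Tnnc1), 411 and 387 (Tnnt1), and 170 and 205 (Tnni1), and the cardiac genes at 3.19 and 3.62 (Tnnt2) and 0.761 and 0.450 (Tnni3). The step from Tnnt2 to Tnni3 was then 4.19-fold (1.88 to 9.33) in flox/flox and 8.03-fold (2.89 to 22.3) in scKO. Both intervals exclude equality, so the flox/flox reading of this step also depends on the length used. The ratio of Tnnc2 to Tnni2 was 3.76 in flox/flox FPKM and 1.19 per coding length, so the fast subunits lie closer together per coding length than in FPKM.

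**Figure D1:**
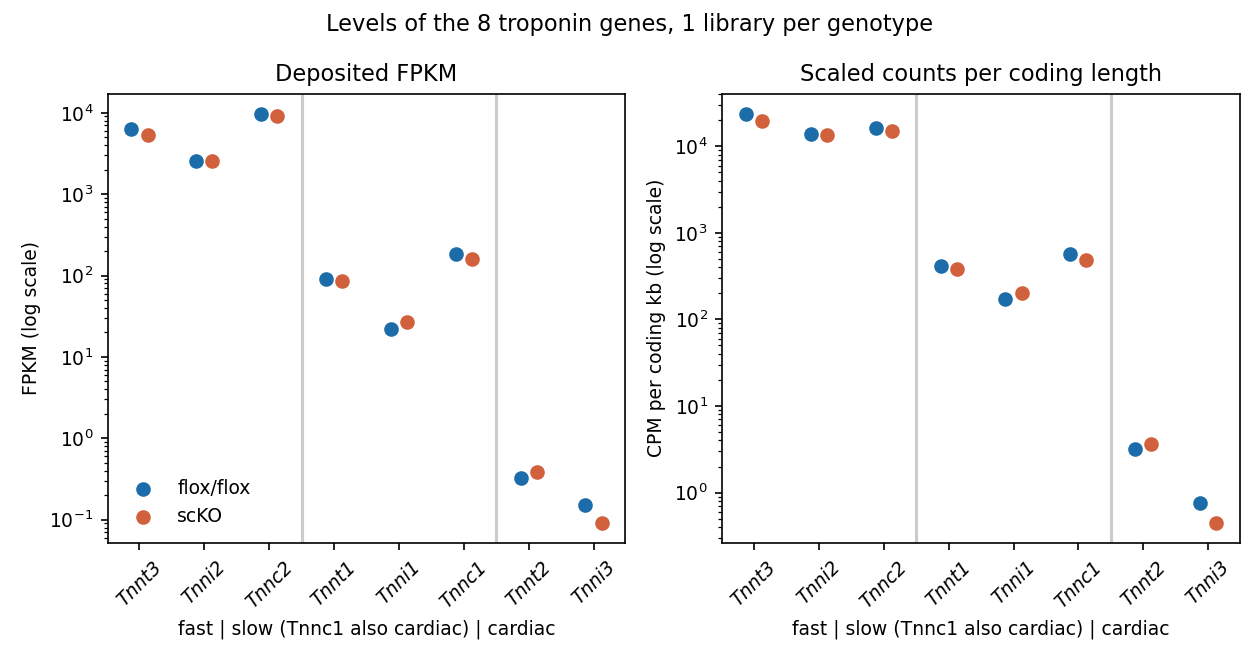
Level of each troponin gene in the flox/flox (blue) and scKO (orange) library, as deposited FPKM (left) and as CPM per kb of coding sequence (right), both on log axes; each point is 1 library and there are no replicates. The fast genes lie above the slow genes and these above the cardiac genes on both scales, while Tnnc2 and Tnnt3 change places.

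Cipc itself was 5.70-fold lower in scKO, on 658 and 111 counts from whole muscle (log2 ratio −2.51, −2.82 to −2.22). In which cells Cipc was lower was not tested. With 1 library per genotype, no troponin difference has a replicate check and no p-value was computed: the ratios compare these libraries, and p-values would need a spread between animals. Brackets give 95% intervals that cover counting error only. Because whole muscle was sequenced, fewer fibres of a type and less RNA per fibre cannot be told apart. Ratios are on the log2 scale, scKO over flox/flox, after TMM scaling of the libraries. A gene was counted as past the 1.2-fold line (0.263 on the log2 scale) where its interval also excluded equality.

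Among the troponin T genes the fast form was lower in scKO and the slow form less so. Tnnt3 stood at 17605 CPM in flox/flox and 14498 in scKO, 1.21-fold lower (log2 ratio −0.28, −0.29 to −0.27). It was past the 1.2-fold line with TMM scaling and with DESeq2 size factors (−0.29) but not with scaling to total counts (−0.24). Tnnt1, the slow form, stood at 322 and 303 CPM (−0.09, −0.15 to −0.03), and at −0.05 with an interval that includes 0 (−0.11 to 0.01) under total-count scaling. Tnnt2, the cardiac form, had 2.89 and 3.28 CPM (0.18, −0.45 to 0.82), a difference not detectable at this depth. The fast gene was therefore lower by more than the slow one: the ratio of Tnnt1 to Tnnt3 counts was 0.0183 in flox/flox and 0.0209 in scKO, a change of 0.19 (0.13 to 0.25) that no library scaling can alter.

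In troponin I the fast gene differed little and the slow gene was higher. Tnni2 stood at 7484 CPM in flox/flox and 7322 in scKO (−0.03, −0.04 to −0.02), and its sign turned with scaling to total counts, where the interval included 0 (0.0066, −0.0057 to 0.019). Tnni1 stood at 95.6 and 115 CPM, higher in scKO (0.26, 0.16 to 0.37). It lay on the 1.2-fold line: past it with TMM and with total counts (0.30), and short of it with DESeq2 size factors (0.25). Tnni3 had 0.482 and 0.285 CPM (−0.69, −2.98 to 1.22), so its 7 and 4 counts do not show a direction. The ratio of Tnni1 to Tnni2 counts was 0.0128 and 0.0157, a change of 0.30 (0.19 to 0.40).

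In troponin C both genes were lower in the scKO library. Tnnc1, the form of slow fibres and heart, stood at 277 CPM in flox/flox and 234 in scKO (−0.25, −0.31 to −0.18), just short of the 1.2-fold line. Tnnc2, the fast form, stood at 7846 and 7131 CPM (−0.14, −0.15 to −0.13). Here the slow form was lower by more than the fast one, the opposite of troponin T and I: the ratio of Tnnc1 to Tnnc2 counts was 0.0354 and 0.0328, a change of −0.11 (−0.18 to −0.04).

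Read as shares of each subunit, the slow and cardiac forms made up a few percent. For troponin T they held 1.81% of the counts in flox/flox (exact binomial 95% interval 1.76% to 1.86%) and 2.07% in scKO (2.01% to 2.13%). For troponin I they held 1.27% (1.203% to 1.336%) and 1.55% (1.47% to 1.62%). For troponin C they held 3.42% (3.31% to 3.52%) and 3.18% (3.07% to 3.29%). The intervals of the 2 libraries do not overlap in any of the 3 subunits, and the share was higher in scKO for T and I and lower for C. How often shares separate in other gene families was not counted. For single genes, ratio intervals lay below 0 in 12.3% and above 0 in 12.8% of all tested genes. Among the 235 genes with a summed count of at least 10000 they did so in 48.5% and 33.6%. In FPKM the shares were 1.40% and 1.60% for troponin T, 0.850% and 1.04% for I, and 1.86% and 1.73% for C, in the same directions. These intervals hold counting error alone, and the labels give no second animal to set beside a shift of this size.

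**Figure D2:**
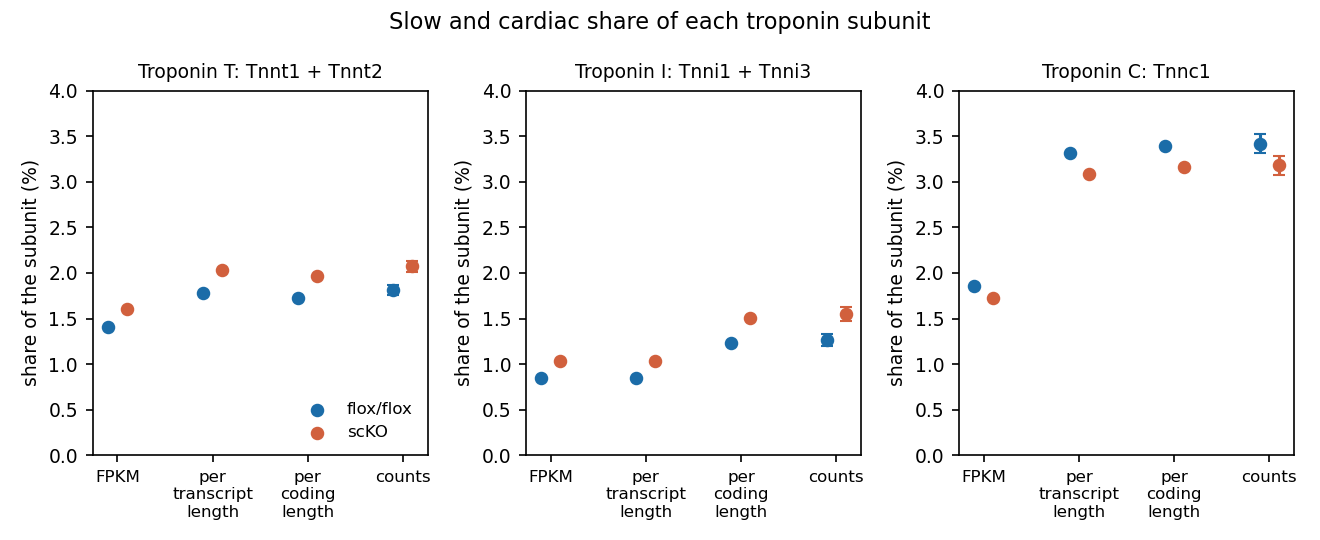
Share of slow and cardiac genes within troponin T, I and C in percent of the subunit, for flox/flox (blue) and scKO (orange), by 4 ways of treating gene length; bars on the count shares are exact binomial 95% intervals, which cover counting error only. In each way of treating length the scKO point lies above flox/flox for T and I and below it for C.

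The fast subunits also shifted against each other. Tnnt3 counts were 2.35 times those of Tnni2 in flox/flox and 1.98 times in scKO, a change of −0.25 (−0.26 to −0.23) on the log2 scale. Against Tnnc2 they were 2.24 and 2.03 times (−0.14, −0.16 to −0.13), and Tnnc2 against Tnni2 was 1.05 and 0.974 times (−0.11, −0.12 to −0.09). Among the slow genes, Tnnc1 counts were 2.90 times those of Tnni1 in flox/flox and 2.04 times in scKO (−0.51, −0.63 to −0.39), and Tnnt1 against Tnni1 was 3.37 and 2.64 times (−0.35, −0.47 to −0.23). In both sets the troponin I gene was higher relative to its partners in scKO. These are ratios of counts within a library, in which gene length cancels only in the change.

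Against all genes the differences were small. Of the 7 tested members, Tnni1 was past the 1.2-fold line upward and Tnnt3 downward. Over all 12662 tested genes 8.55% were past it upward and 8.70% downward, so 1 of 7 in each direction is near the background. None of the 7 members was past 2-fold, as were 1.45% of all tested genes upward and 1.88% downward. Intervals lay below 0 for 5 members (Tnnt1, Tnnt3, Tnni2, Tnnc1, Tnnc2) against 12.3% of all tested genes, and above 0 for Tnni1 against 12.8%. With total counts 3 members (Tnnt3, Tnnc1, Tnnc2) had intervals below 0, against 9.70% of all tested genes. These counts depend on depth: among the 235 genes with a summed count of at least 10000, to which the 3 fast genes belong, 48.5% had intervals below 0 and 33.6% above. The median log2 ratio of the tested members was −0.09, beside 0.0021 over all tested genes and −0.02 over those 235. Within the 235, Tnnt3 had 17 genes below it (7.23%), 8.51% were past the 1.2-fold line downward and 4.68% upward, and 1 gene (0.426%), Actc1, was past 2-fold downward. With total-count scaling the higher genes made up 60.2% of all genes past the 1.2-fold line, against 49.6% with TMM.

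**Figure D3:**
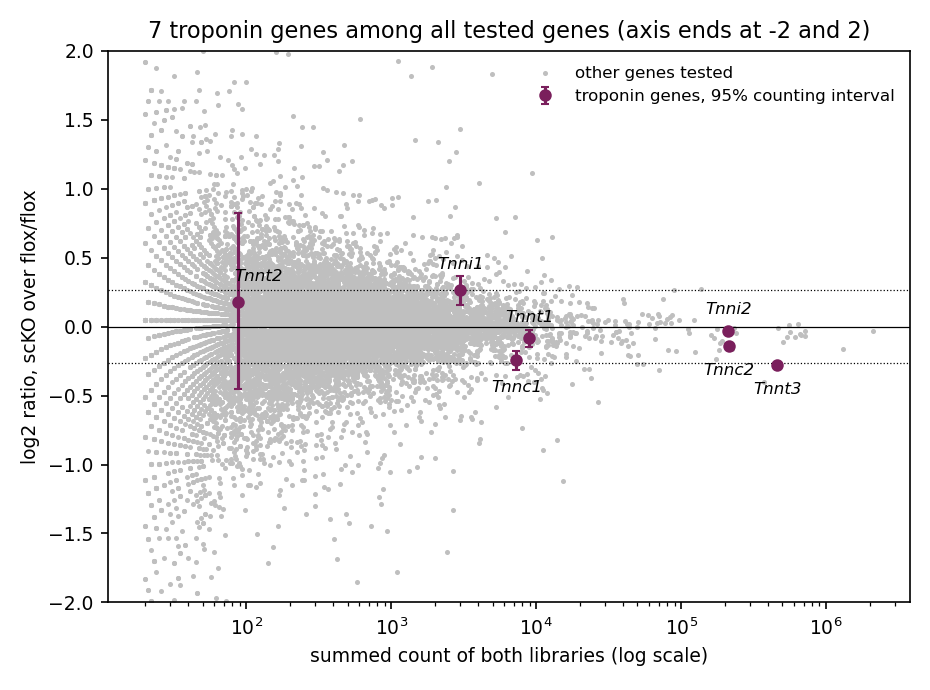
Log2 ratio of scKO over flox/flox against the summed count (log axis) for all tested genes (grey) and the 7 tested troponin genes (purple, bars are 95% counting intervals); dotted lines mark 1.2-fold and the axis leaves out 71 genes beyond −2 or 2. The 3 fast genes sit at the right of the plot between −0.28 and −0.03, and Tnni1 lies on the upper dotted line.

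Genes close to Tnnt3 in their ratio were sought among the 232 other named genes with a summed count of at least 10000. The nearest were Myh7, the slow myosin heavy chain (30246 and 24210 counts, −0.27, −0.29 to −0.25), Ldb3, a Z-disc protein gene (27523 and 22047 counts, −0.27, −0.29 to −0.24), and Gapdh, a glycolytic enzyme gene (6960 and 5608 counts, −0.26, −0.31 to −0.21). They differed from Tnnt3 by 0.010, 0.011 and 0.020. With 2 libraries a pattern is a single ratio, and 9 genes fell within 0.05 of Tnnt3.

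The other genes of the thin filament were mostly a little lower in scKO as well. Of 14 listed partners of troponin, 3 were past the 1.2-fold line downward (against 8.70% of all tested genes) and none upward (8.55%). The median log2 ratio was −0.11. Actc1, the cardiac α-actin gene, had 10625 and 4708 counts (−1.12, −1.17 to −1.07). It was the partner past 2-fold downward, as were 1.88% of all tested genes. Klhl40, which stabilises thin filament proteins, had 1469 and 1053 counts (−0.43, −0.54 to −0.31). Tpm1, the α-tropomyosin gene to whose product troponin T binds, had 214002 and 156487 counts (−0.40, −0.41 to −0.39). At the upper end were Tpm2, the β-tropomyosin gene (48058 and 47916 counts, 0.05, 0.03 to 0.07), and Lmod3, a leiomodin gene (2329 and 2271 counts, 0.01, −0.07 to 0.10). The main skeletal actin gene Acta1, with 369713 and 341106 counts, stood at −0.07 (−0.07 to −0.06). Of the fast troponin genes, Tnnt3 and Tnnc2 (−0.14) were lower by more than Acta1, as was Tpm1, and Tnni2 was not. Acta1 was added to the named genes after its values were seen.

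**Figure D4:**
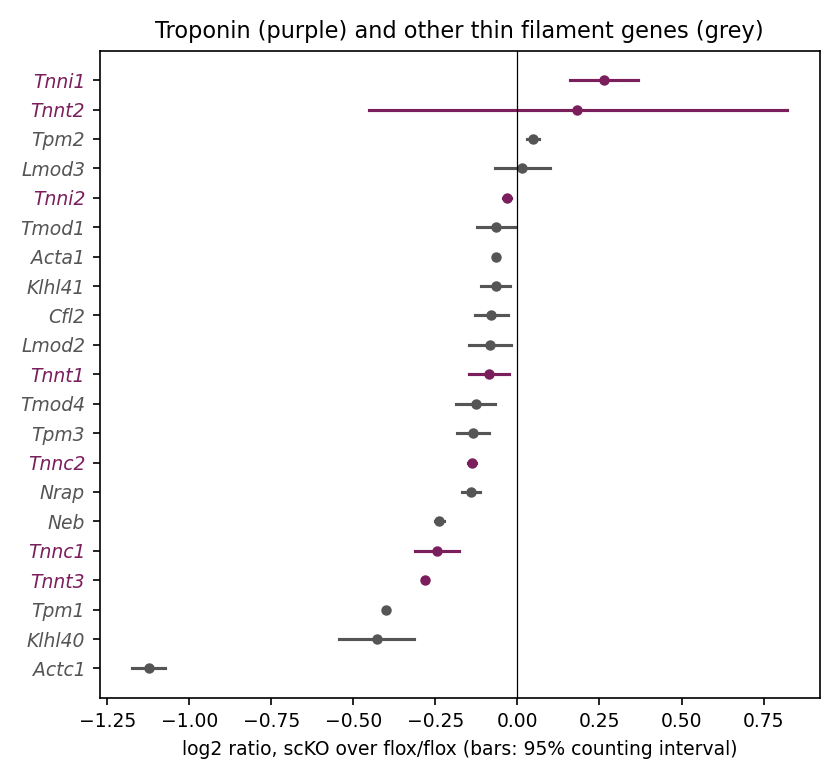
Log2 ratio of scKO over flox/flox for the 7 tested troponin genes (purple) and 14 other thin filament genes (grey), sorted, with 95% counting intervals. Actc1 at −1.12 stands apart at the bottom, Tnni1 at 0.26 and Tnnt2 at 0.18 are at the top, and the fast troponin genes lie between −0.28 and −0.03.

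Slow fibre genes outside troponin were set beside Tnnt1, Tnni1 and Tnnc1. Of 13 listed slow fibre genes 7 were past the 1.2-fold line downward and none upward, beside 8.70% and 8.55% of all tested genes, with a median of −0.28. With total-count scaling 5 of the 13 were past it downward. This list and the line, like the other lists, were chosen with earlier results of these data known. Csrp3, a Z-disc protein gene, had 1825 and 854 counts (−1.04, −1.16 to −0.93), and Ankrd2, a stretch-responsive gene, 2533 and 1878 (−0.38, −0.47 to −0.29). Mybpc1, the slow myosin-binding protein C gene, had 29298 and 30026 counts (0.09, 0.06 to 0.11), and Myoz2, another Z-disc gene, 2906 and 2853 (0.02, −0.05 to 0.10). Tnnc1 at −0.25 lay near that median, Tnnt1 at −0.09 above it, and Tnni1 at 0.26 above every one of the 13. Of 14 fast fibre genes, 1 was past the line upward (Myh1, the IIx myosin, 0.27, 0.26 to 0.29) and 1 downward (Tpm1), with a median of −0.11. A count of 1 of 14 in each direction is near the 8.55% and 8.70% of all tested genes. Mybpc2, the fast myosin-binding protein C gene, stood at −0.19 (−0.20 to −0.17), and Mylk2, the skeletal myosin light chain kinase gene, at 0.07 (0.03 to 0.11). The fast genes Tnni2 and Tnnc2 lay within the range of that list, and Tnnt3 below all of it but Tpm1.

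Markers of heart muscle were read beside the cardiac troponin genes. Of 14 markers, 9 had 0 counts in both libraries: Nppa, Nppb, Myl7, Nkx2-5, Tbx5, Gata4, Tbx20, Mybpc3 and Hamp. A count of 0 allows up to 0.206 CPM in flox/flox and 0.214 in scKO. Ryr2 had 1 and 3 counts, Myh6 94 and 115, Myl4 93 and 82, Sbk2 501 and 542, and Fabp3, which skeletal fibres also express, 4872 and 4961. Myl4 is also on the list of markers of developing or regenerating fibres, so it does not mark heart muscle alone. The markers summed to 383 and 407 CPM, most of it Fabp3. The natriuretic peptide and transcription factor genes of the list were at 0, while Myh6, Myl4, Sbk2, Fabp3 and, barely, Ryr2 were detected. Tnnt2 had 42 and 46 counts in the same libraries, and whether heart muscle contributed to them was not tested.

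Markers of developing or regenerating fibres were low in both libraries. Myh3, the embryonic myosin, had 66 and 80 counts (0.33, −0.16 to 0.82), Myh8 41 and 37, Ncam1 81 and 87, and Cdh15 211 and 230. Myl4, shared with the heart muscle list, had 93 and 82 (−0.13, −0.58 to 0.31). Myog, the myogenin gene, had 82 and 35 (−1.17, −1.79 to −0.59). It was the 1 of 6 tested markers past the 1.2-fold line downward, against 8.70% of all tested genes, and none was past it upward (8.55%). Myog was also past 2-fold downward, as were 1.88% of all tested genes. The fusion genes Mymk (2 and 4 counts) and Mymx (0 and 1) and the fetal receptor subunit Chrng (0 and 3) were near 0. The 9 markers summed to 39.6 and 39.9 CPM. Whether such fibres contributed to Tnni1 or Tnnt2 was not tested. Of the smooth muscle markers, Myh11 (390 and 403 counts), Acta2 (419 and 443) and Smtn (1188 and 1143) had intervals that include 0. Tagln had 277 and 321 counts and was past the 1.2-fold line upward (0.26, 0.03 to 0.50). Cnn1, on only 18 and 4 counts, was past the 2-fold line downward (−1.99, −4.14 to −0.52), as were 1.88% of all tested genes. Des, which skeletal fibres also make, had 36135 and 35736 (0.04, 0.01 to 0.06). With 1 of the 6 past the 1.2-fold line in each direction, the markers are read beside the 8.55% upward and 8.70% downward of all tested genes. These 6 markers summed to 2644 and 2713 CPM.

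Except for the troponin C genes, the members lie in pairs of a troponin I and a troponin T gene. The ratios differed beyond counting error in the pair of fast genes, and not in the other pairs, whose cardiac genes have few counts. On chromosome 7 (GRCm38, GENCODE M21 annotation), Tnni2 (ENSMUSG00000031097) spans 142441808 to 142444410 and Tnnt3 (ENSMUSG00000061723) 142498836 to 142516009, both on the plus strand. Their ratios were −0.03 and −0.28. Lsp1, which lies between them, had 283 and 303 counts (0.15, −0.09 to 0.39). Also on chromosome 7 but on the minus strand, Tnnt1 (ENSMUSG00000064179) spans 4504570 to 4516382 and Tnni3 (ENSMUSG00000035458) 4518305 to 4524229, a gap of 1922 bp. These neighbours had 4679 and 7 counts in flox/flox, and the interval of Tnni3 (−2.98 to 1.22) contains the ratio of Tnnt1, −0.09. On chromosome 1, Tnni1 (ENSMUSG00000026418) spans 135779434 to 135810989 and Tnnt2 (ENSMUSG00000026414) 135836354 to 135852260, with Lad1 between them at 1 count in each library. Their log2 ratios were 0.26 for Tnni1 and 0.18 for Tnnt2, and the change of Tnnt2 relative to Tnni1 was −0.08 (−0.69 to 0.53). Phlda3, upstream of Tnni1, had 2121 and 1808 counts (−0.18, −0.27 to −0.09), a ratio of the opposite sign to that of Tnni1. All other genes outside the family that overlap a member or lie nearest to it had intervals that include 0.

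The troponin C genes each overlap a gene on the other strand. Tnnc1 (ENSMUSG00000091898, chromosome 14, 31208312 to 31211729) lies wholly inside Nisch, which had 924 and 851 counts (−0.07, −0.20 to 0.07), but none of its principal transcript lies in a Nisch exon. Tnnc2 (ENSMUSG00000017300, chromosome 2, 164777161 to 164779967) overlaps Ube2c, a gene of the cell division machinery. Of the 700 bases of its principal transcript 592 (84.6%) lie in annotated exons of Ube2c, and so do 477 of its 480 coding bases. Ube2c had 4 counts in each library. No label gives the strand setting, so how reads from these bases were divided, or whether some were left out, cannot be read from the counts. The level of Tnnc2 carries that uncertainty in both libraries. So do the troponin C shares and the ratios of other troponin genes to Tnnc2, whose intervals do not cover it. Prr33 overlaps Tnnt3 on the other strand with 2297 and 2313 counts (0.06, −0.02 to 0.15), and Dnaaf3 overlaps Tnni3 with 0 counts in both. Neither shares an exon base with the principal troponin transcript.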

How the data were processed

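Whole-muscle RNA was sequenced in 1 flox/flox and 1 scKO library, with totals of 14727219 and 13842100 counts; 1 count is the smallest step, and intervals and limits for 0 counts (3 counts) cover counting error only. The authors deposited raw counts per gene and, per the file headers, FPKM values. The submitters' processing notes name CASAVA, HISAT2 2.0.4, StringTie 1.3.0 and GRCm38; annotation, strand setting and treatment of reads matching several genes are not given in the sources used here. A gene name table named 34267 of 34745 identifiers.

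Libraries were scaled by TMM (edgeR 4.0.16, R 4.3.3). Log2 ratios used a prior count of 0.5 and exact conditional binomial 95% intervals; changes of ratios between genes used log-scale (Woolf) intervals. Genes with a summed count of at least 20 were tested against a 1.2-fold and a 2-fold line. Without replicates no edgeR or DESeq2 test could be fitted. Alternatives were total counts, DESeq2 1.42.0 size factors, totals without mitochondrially encoded genes, other minima and prior counts, log2(FPKM + 1) and other lengths. The procedure was tested on simulated counts that held counting error only and were scaled by library totals. That test does not cover TMM scaling or the spread between animals. Coding sequences of principal (APPRIS) GENCODE M21 transcripts were aligned with MAFFT.

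The members, the 1.2-fold line and the 6 gene lists were chosen with earlier results of these data known. Named were the 8 members, Cipc, some neighbours of the members, all marker genes and the 3 genes nearest to Tnnt3 in ratio. From each list the 2 highest and 2 lowest genes with a summed count of at least 1000 were also named. Acta1 was named after its values were seen. No protein sequences were used.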

Additional observations from a re-analysis of the deposited data

How the results depend on the processing

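No paired analysis was possible because each group held 1 library, and for the same reason no replicate could be left out. Total-count scaling moved the median of all tested genes by 0.038 on the log2 scale. With it Tnnt3 stood at −0.24, Tnnc2 at −0.10 and Tnni2 at 0.0066, a reversed sign; without mitochondrially encoded genes in the total they stood at −0.24, −0.10 and 0.0061, and as log2(FPKM + 1) at −0.24, −0.10 and 0.0066. With DESeq2 size factors Tnnt3 stood at −0.29. The other 5 members stayed inside their counting intervals under every alternative run. Intervals below 0 numbered 5 among the tested members, and 3 with total counts and with totals without mitochondrially encoded genes, since those of Tnnt1 and Tnni2 then included 0; these counts were added after seeing the data. Genes at least 2-fold higher numbered 183, and 57 with a minimum of 100 counts; those at least 2-fold lower numbered 238, 67 with a minimum of 100 and 365 with no minimum. No smooth muscle marker (0) was past the 1.2-fold line downward with a minimum of 100, since Cnn1 then was not tested. Added after seeing the data were counts per coding length and per principal transcript length; each exchanged the ranks of 2 genes, Tnnt3 and Tnnc2, in both libraries. For flox/flox and scKO, the slow and cardiac share of troponin T was 1.72% and 1.97% per coding length, 1.77% and 2.03% per transcript length, and 1.81% and 2.07% without length. For troponin I it was 1.23% and 1.51% per coding length and 1.27% and 1.55% without length. For troponin C it was 3.39% and 3.16%, 3.32% and 3.09%, and 3.42% and 3.18%. Its direction was kept in each. Coding lengths came from the annotation; the planned lengths from protein sequences were not run.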
